A study of Oryctolagus cuniculus with 6 samples.

Results

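The 9 genes described here are MBP, MOG, MAG, CNP, MOBP, ERMN, UGT8, CLDN11 and MYRF, which are genes of myelin and of the oligodendrocytes that make it. They were chosen by name, and all 9 were found among the 28788 genes of the deposited tables. The samples were 3 retinas labelled normal and 3 labelled PVR (proliferative vitreoretinopathy, scarring on and around the retina) from Oryctolagus cuniculus, the rabbit. In the study's model, the sclera of adult rabbits was punctured, some vitreous was drawn off and platelet-rich plasma was put into the vitreous cavity. Strain, sex and the time from injection to collection are not given in the sources used here, and neither is the piece of retina that was taken. The labels do not say that the samples came from separate animals, so p-values measure the spread between these samples, which may be technical.

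Myelin is the stack of membrane that an oligodendrocyte wraps around an axon so that impulses travel faster. Most of the mammalian retina holds no myelin, because ganglion cell axons are usually wrapped only behind the eye. The rabbit is an exception, and its axons carry myelin within the eye along a horizontal band on each side of the optic disc, the medullary rays. Retinal blood vessels and astrocytes of the rabbit lie in the same band.

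Each sample had between 31904593 and 43035080 reads counted on genes. As for the tissue label, SAG, the arrestin of rods, ranked 9 and GNAT1, the transducin of rods, 15 among all genes by mean FPKM (fragments per kilobase of gene, scaled by the sample's total). Lens genes set normal replicate 2 apart, with a summed level of 33007 CPM (counts scaled to library size with TMM factors) over 11 lens genes in that sample against 15.4 to 311 CPM in the other 5. Results that rest on normal replicate 2 are also given without it, and the part of the lens RNA in them was not tested. MAG and MOBP passed the filter on low counts only through the normal samples.

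All 9 genes had a lower level in PVR than in normal retina, as had 51.1% of all genes tested, but only 3 of the 9 passed an adjusted p of 0.05 with edgeR's quasi-likelihood test, namely MOBP, ERMN and MAG. Of these, MOBP and MAG had entered the test only through the normal samples. Over all 18697 genes tested, 0.615% were called lower in PVR by the same rule. The unadjusted p was under 0.05 for all 9, against 9.94% of all genes tested that were lower with such a p. The log2 fold changes (log2FC, PVR against normal) of the 9 genes lay between -5.76 and -0.60 with a median of -2.35, whereas the median of all genes tested was -0.01. With all 3 PVR samples below all 3 normal samples on the CPM scale stood 8 of the 9 genes, against 14.6% of all genes tested. On the FPKM scale, which has no TMM factors, 6 of the 9 genes did so, against 9.69% of all genes tested. In a bulk sample, fewer oligodendrocytes and less RNA per oligodendrocyte cannot be told apart. Neither can be told apart from how much of the medullary rays each piece of retina held, which is not given.

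**Figure D1:**
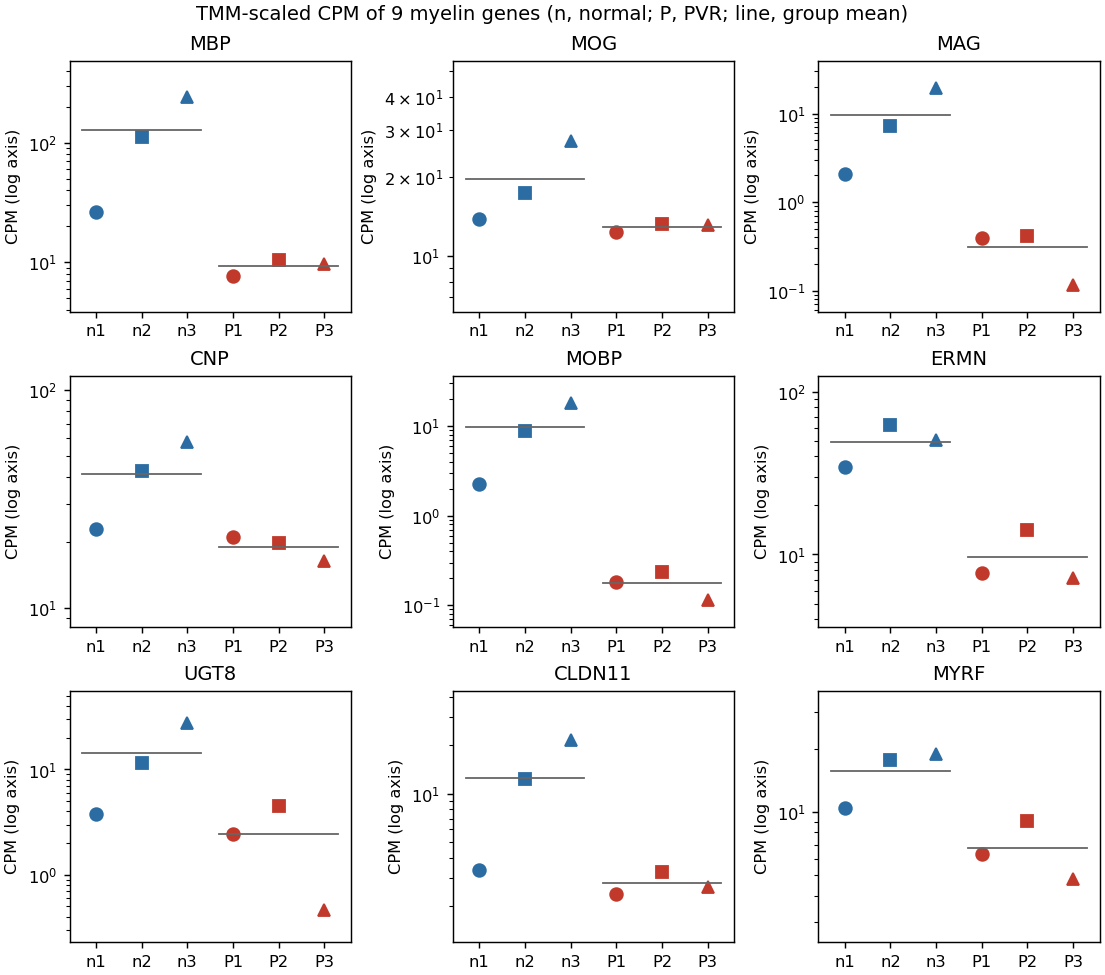
TMM-scaled CPM of each gene (log axis, own range per panel) in normal replicates 1 to 3 (n1 to n3, blue) and PVR replicates 1 to 3 (P1 to P3, red), with a line at each group mean. MBP spans 26.2 to 242 CPM in the normal samples and 7.67 to 10.5 CPM in PVR, and in UGT8 alone a PVR sample lies above a normal one.

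MBP encodes myelin basic protein, which holds the inner faces of the myelin membrane together. Its level was 26.2, 113 and 242 CPM in normal replicates 1 to 3 and 7.67, 10.5 and 9.65 CPM in PVR replicates 1 to 3. The groups did not overlap, and the lowest normal sample was 2.50 times the highest PVR sample. The normal samples were much further apart than the PVR samples. MBP had a log2FC of -3.77 (standard error, SE, 0.72) and just missed the threshold, with an adjusted p of 0.0532 from edgeR. Its adjusted p was under 0.05 in 4 of 16 alternatives, which were DESeq2 with 0.000231 and edgeR with no filter on low counts (0.0320), without normal replicate 1 (0.0110) and without normal replicate 3 (0.0471).

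MOBP, a small basic protein of compact myelin, had the largest difference of the 9. It was at 2.26, 8.87 and 18.0 CPM in the normal samples and at 0.183, 0.238 and 0.115 CPM in PVR. The PVR values stand on 6, 8 and 5 reads, so they are close to the limit of detection, whereas the normal samples had 86, 345 and 719 reads. The lowest normal sample was 9.49 times the highest PVR sample. MOBP had a log2FC of -5.76 (SE 0.83) and an adjusted p of 0.0285 from edgeR. It was called in 9 of 15 alternatives. The call was lost without normal replicate 2 (adjusted p 0.0772), PVR replicate 1 (0.188) or PVR replicate 2 (0.0819), and among other settings with limma-voom (0.194) and log2(FPKM + 1) (0.0797).

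CLDN11 forms the tight junctions between the layers of myelin. It was at 3.34, 12.3 and 21.7 CPM in the normal samples and at 2.38, 3.27 and 2.63 CPM in PVR. Normal replicate 1 was thus 1.02 times the highest PVR sample, and on the FPKM scale the order of these 2 samples was the opposite. CLDN11 had a log2FC of -2.17 (SE 0.59) and was not called, with an adjusted p of 0.109 from edgeR. With DESeq2 the adjusted p was 0.0342, and with edgeR without normal replicate 1 it was 0.0327.

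MAG, a sialic acid-binding glycoprotein on the innermost membrane that faces the axon, was at 2.08, 7.20 and 19.6 CPM in the normal samples. In PVR it was at 0.397, 0.417 and 0.115 CPM, from 13, 14 and 5 reads. The groups did not overlap, and PVR replicate 3 was the lowest of all samples. MAG had a log2FC of -4.98 (SE 0.91) and an adjusted p of 0.0478 from edgeR, close to the threshold. It was called in 6 of 15 alternatives. The call was lost without normal replicate 2 (adjusted p 0.116), PVR replicate 1 (0.239), PVR replicate 2 (0.119) or PVR replicate 3 (0.0648). Among other settings it was also lost with robust estimation (0.0743), limma-voom (0.210), log2(FPKM + 1) (0.141) and log2(FPKM + 0.1) (0.0692).

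MOG lies on the outermost surface of myelin and is the known target of antibodies in MOG antibody disease. It had the smallest difference of the 9, with 13.8, 17.3 and 27.4 CPM in the normal samples against 12.3, 13.2 and 13.1 CPM in PVR. The PVR samples and normal replicate 1 lay close together, and on the FPKM scale they overlapped. MOG had a log2FC of -0.60 (SE 0.25) and an adjusted p of 0.222 from edgeR, and it was not called in any of the 16 alternatives. In RefSeq's annotation of the newer assembly mOryCun1.1, MOG overlaps ZFP57, a zinc finger gene, and it is the only one of the 8 genes listed there that overlaps another gene. ZFP57 had between 1568 and 2476 reads per sample. The strand setting of the counting is not given in the sources used here, so reads of the overlap cannot be assigned to either gene, and the part of ZFP57 in the MOG counts was not tested.

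CNP, an enzyme that keeps channels of cytoplasm in myelin open, was at 23.1, 42.7 and 57.9 CPM in the normal samples. In PVR it was at 21.2, 19.8 and 16.4 CPM, just under normal replicate 1. CNP had a log2FC of -1.11 (SE 0.31) and an adjusted p of 0.111 from edgeR. It was called in 2 of 16 alternatives, with an adjusted p of 0.00160 with DESeq2 and 0.0445 without normal replicate 1.

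ERMN encodes ermin, a cytoskeletal protein of mature oligodendrocytes that binds actin. It was at 34.3, 62.2 and 50.1 CPM in the normal samples and at 7.64, 14.0 and 7.19 CPM in PVR. The lowest normal sample was 2.44 times the highest PVR sample, and the standard deviation of log2 CPM among the normal samples was the smallest of the 9. ERMN had a log2FC of -2.35 (SE 0.32) and the lowest adjusted p of the 9, 0.0241 from edgeR. It was called in 14 of 16 alternatives, the exceptions being the test without normal replicate 2, with an adjusted p of 0.0722, and the test without PVR replicate 1, with 0.157. ERMN was also the only gene of the 9 whose highest normal sample was replicate 2, the sample with the lens genes. Without that sample log2FC was -2.13.

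UGT8 makes galactosylceramide, the main glycolipid of myelin. It was at 3.78, 11.6 and 27.7 CPM in the normal samples and at 2.42, 4.46 and 0.461 CPM in PVR. This was the gene whose groups overlapped on both scales, since PVR replicate 2 lay above normal replicate 1. PVR replicate 3, with 20 reads, lay far below the other PVR samples. UGT8 had a log2FC of -2.56 (SE 0.90) and an adjusted p of 0.169 from edgeR, and it was not called in any alternative.

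MYRF is the transcription factor that switches on myelin genes in oligodendrocytes. It was at 10.4, 17.7 and 18.8 CPM in the normal samples and at 6.30, 9.08 and 4.81 CPM in PVR. The groups did not overlap, with the lowest normal sample at 1.15 times the highest PVR sample. MYRF had a log2FC of -1.22 (SE 0.31) and an adjusted p of 0.0926 from edgeR. DESeq2 called it with an adjusted p of 0.00116, the only alternative that did.

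**Figure D2:**
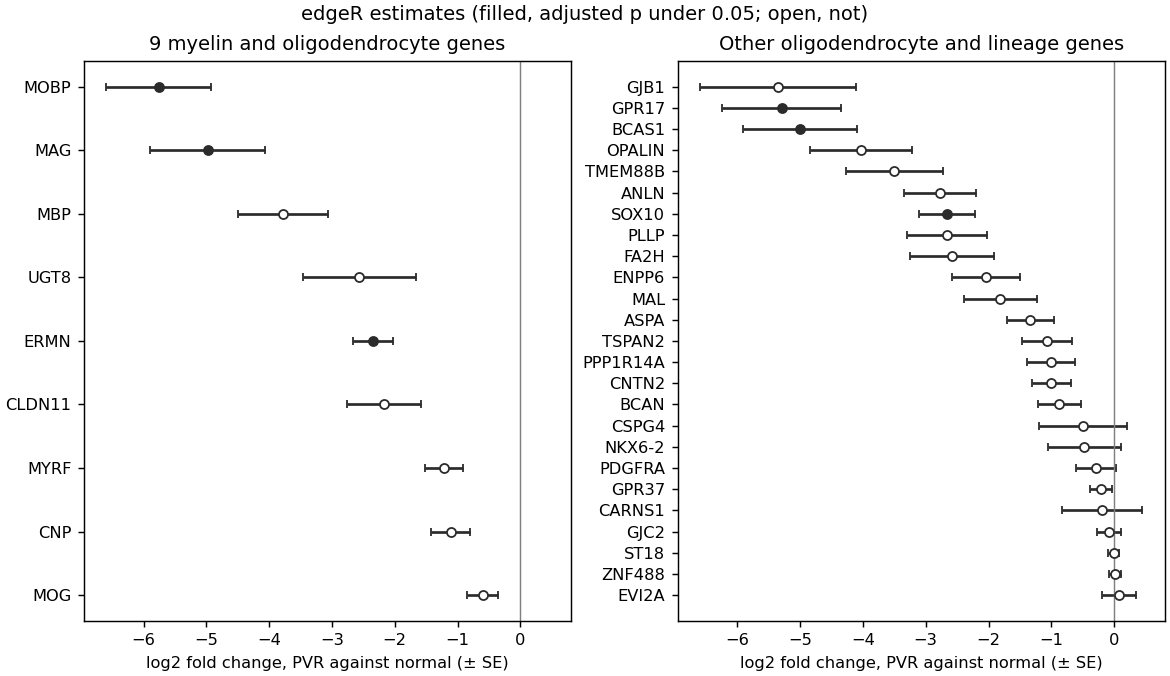
Log2 fold changes from edgeR (PVR against normal, bars of 1 standard error, SE, n = 3 per group) for the 9 genes (left) and for all but 1 of the other oligodendrocyte and lineage genes tested (right). Filled points passed an adjusted p of 0.05. On the left only MOBP, MAG and ERMN are filled, and on the right only GPR17, BCAS1 and SOX10.

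DESeq2, the tool that the study's methods name, called 7 of the 9 genes lower, all but MOG and UGT8, where 3.33% of all genes with an adjusted p were called lower. For single genes, a two-sided exact permutation test of mean FPKM gave p = 0.1 for MBP, MAG, CNP, MOBP, ERMN and MYRF, which is as low as groups of 3 and 3 can reach. The same exact test gave p = 0.2 for MOG, UGT8 and CLDN11. The count of called genes changed when single libraries were left out. It was 0 of 9 with edgeR without normal replicate 2, when all 9 had an unadjusted p under 0.05, and 0 of 9 without PVR replicate 1, when 7 had. It was 1 of 9 without PVR replicate 2 and 6 of 9 without normal replicate 1. The direction was lower in PVR for every gene in each of these tests. The tests share samples, and MAG and MOBP had entered the main test only through the normal samples. Over all genes, those with an adjusted p under 0.05 and a change over 1 on the log2 scale numbered 188 with all samples, 64 without normal replicate 2 and 22 without PVR replicate 1. The median log2FC of the 9 genes was -2.18 and -2.21 in these last 2 tests.

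The normal samples differed among themselves in these genes. Normal replicate 1 was the lowest normal sample for all 9 genes, as it was for 31.5% of all genes tested. Replicate 3 was the highest for 8 of the 9, and these 8 genes stood in the order of replicates 1, 2 and 3, a label order with no meaning of its own, as did 18.4% of all genes tested. The ratio of the highest to the lowest normal sample had a median of 6.52 over the 9 genes and of 1.31 over all genes tested. Within PVR the same ratio had a median of 1.89 over the 9 genes and of 1.31 over all genes. These ratios have no replicate check, because each compares single libraries.

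The spread among the normal samples was wide for MAG, MBP, MOBP, UGT8 and CLDN11 and narrower for CNP, MOG, MYRF and ERMN. Normal replicate 3 was 9.44 times replicate 1 for MAG, with a 95% interval of 7.48 to 12.1 that covers counting error only. For MBP the ratio was 9.24 (95% interval 8.66 to 9.87), for MOBP 7.96, for UGT8 7.32 and for CLDN11 6.52. For CNP it was 2.51, for MOG 1.99, for MYRF 1.81 and for ERMN 1.46 (95% interval 1.36 to 1.57). None of the 9 intervals included 1, so the depth was enough to tell these libraries apart. In standard deviation of log2 CPM among the normal samples, MBP stood at percentile 98.0 of all genes tested and ERMN, the lowest of the 9, at percentile 75.7.

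**Figure D3:**
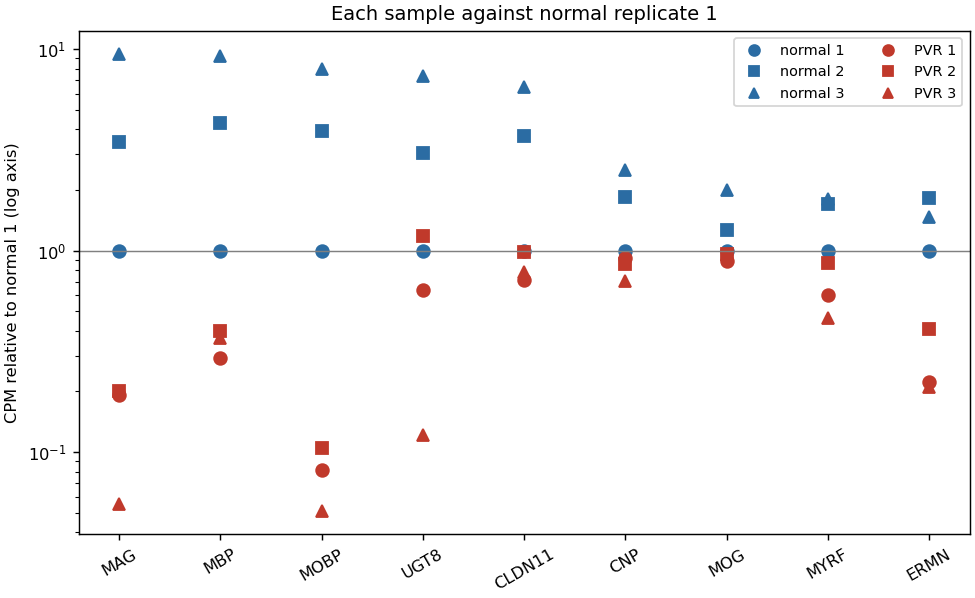
CPM of each sample divided by that of normal replicate 1 (log axis), for the 9 genes ordered by the ratio of normal replicate 3 to replicate 1. Normal replicate 3 reaches 9.44 for MAG and 1.46 for ERMN, and the PVR samples lie close to the line at 1 for MOG, CNP and CLDN11.

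Normal replicate 1 lay close to the PVR samples for some of the genes. It was 1.07 times the PVR mean for MOG, 1.21 times for CNP, 1.21 times for CLDN11, 1.55 times for UGT8 and 1.55 times for MYRF. For MBP it was 2.83 times, for ERMN 3.56 times, for MAG 6.70 times and for MOBP 12.6 times the PVR mean. For MAG and MOBP the PVR values stand on 14 reads or fewer.

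Per length, MBP was the most abundant of the 9 in normal retina, with 48.9 ± 42.7 FPKM (SD, n = 3). Its spread reached the levels of the next genes. It was followed by CNP with 16.4 ± 7.18, ERMN with 13.2 ± 3.61, MOG with 11.5 ± 4.39 and MOBP with 10.5 ± 8.75 FPKM, levels that do not differ beyond their spread. CLDN11 had 6.52 ± 4.92, MAG 3.93 ± 3.75, UGT8 3.13 ± 2.71 and MYRF 2.56 ± 0.759 FPKM. In PVR, CNP with 7.98 ± 1.11 FPKM and MOG with 7.95 ± 0.338 FPKM (SD, n = 3) came highest and did not differ beyond their spread. MBP had 3.72 ± 0.601, ERMN 2.74 ± 1.13, CLDN11 1.51 ± 0.268, MYRF 1.16 ± 0.389 and UGT8 0.560 ± 0.462 FPKM there. MOBP and MAG came last with 0.203 ± 0.0725 and 0.132 ± 0.0730 FPKM.

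The proportions of the 9 transcripts also differed between samples. The summed FPKM was 44.1, 109 and 197 in the normal samples against 25.0, 29.8 and 23.0 in PVR. MBP made up 22.7%, 38.6% and 48.0% of that sum in normal replicates 1 to 3 and 12.3%, 14.3% and 16.6% in PVR. MOG made up 18.4%, 9.17% and 8.36% in the normal samples against 30.4%, 27.8% and 34.6% in PVR. MOBP made up at least 5.52% in each normal sample and 0.831%, 0.915% and 0.558% in PVR. MBP and MOBP thus had larger shares in every normal sample than in any PVR sample, and MOG had smaller ones.

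**Figure D4:**
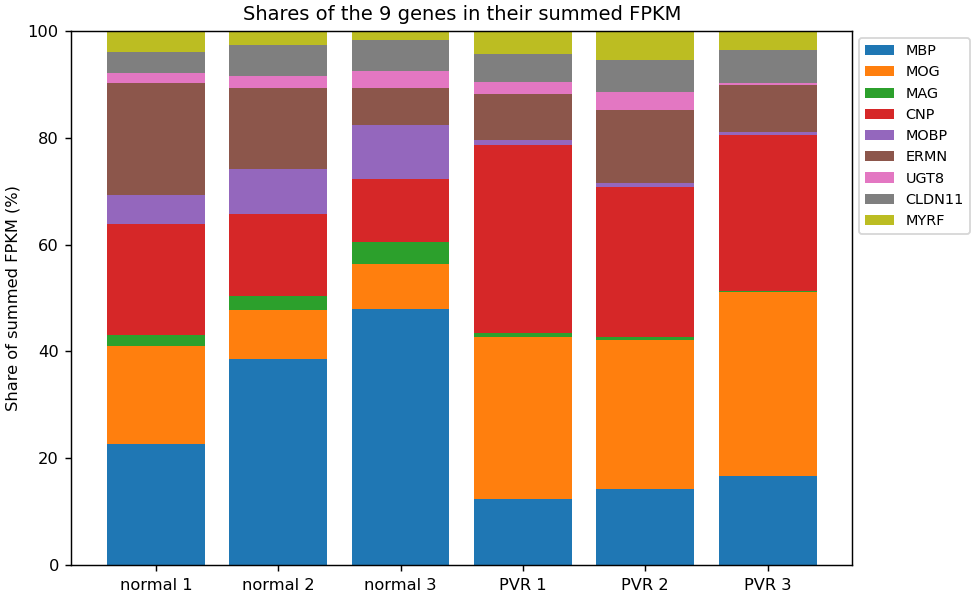
Share of each of the 9 genes in their summed FPKM (percent, stacked to 100) in each sample. MBP takes 48.0% in normal replicate 3 and 12.3% in PVR replicate 1, and MOG and CNP take the larger shares in the PVR samples.

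Other genes of mature oligodendrocytes and myelin, 25 by list, were looked at in the same fit. Of these, 24 were in the files and 20 were tested, 4 of which, BCAS1 included, passed the filter only through the normal samples. By fold change 19 of the 20 were lower in PVR, against 51.1% of all genes tested, with a median log2FC of -1.57. Only BCAS1 was called, where 0.615% of all genes tested were called lower. Since the filter favoured a lower value for 4 of the 20, the count, the median and the call are a description only. BCAS1 is a protein of oligodendrocytes that are starting to myelinate. It had 50, 235 and 538 reads in the normal samples against 12, 5 and 6 in PVR, with a log2FC of -5.00 (SE 0.91) and an adjusted p of 0.0472 from edgeR. That p was 0.126 without normal replicate 2, 0.222 without PVR replicate 1, 0.137 without PVR replicate 2 and 0.0696 without PVR replicate 3. DESeq2 called 13 of the 24 lower, where 3.33% of all genes with an adjusted p were called lower.

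GPR37, a receptor, and ST18, a zinc finger factor, were among the 3 most abundant genes of that list and had log2FC of -0.21 and -0.01, with adjusted p of 0.518 and 0.962 from edgeR. The members of the list thus ranged from -5.35 for GJB1, a gap junction protein, to 0.08 for EVI2A, both named after their values were seen.

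The regulators of the lineage had few reads in retina. SOX10, the factor that fixes oligodendrocyte identity and acts with MYRF, had 84, 233 and 236 reads in the normal samples against 22, 31 and 27 in PVR. It was called lower with a log2FC of -2.67 (SE 0.44) and an adjusted p of 0.0402 from edgeR. GPR17, a receptor of precursors about to mature, had 17, 37 and 86 reads in the normal samples against 1, 0 and 2 in PVR, and it was called lower with an adjusted p of 0.0462 from edgeR. The call of GPR17 was lost without any 1 of the 6 samples, with adjusted p of 0.0557 to 0.243, and that of SOX10 without any sample but normal replicate 1, with adjusted p of 0.0518 to 0.226. The ratio of the pooled GPR17 reads, normal over PVR, was 43.8 with a 95% counting interval of 14.7 to 215. OLIG1, OLIG2 and NKX2-2, named after their values were seen, were too low to be tested. OLIG1 had 6, 29 and 51 reads in the normal samples against 2, 0 and 0 in PVR. The most abundant of this list, ZNF488, PDGFRA and BCAN, were not called, with log2FC of 0.01, -0.29 and -0.88. In all, edgeR called 2 of the 6 tested genes of the lineage list lower, as it did 0.615% of all genes tested. The median log2FC of the list was -0.68. GPR17 was the 1 of the 6 that passed the filter only through the normal samples, so its call is no support for the list.

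Schwann cells make the myelin of nerves outside the brain. None of their 8 genes was called by edgeR, where 3 had an unadjusted p under 0.05, and the median log2FC was -0.70. DESeq2 called 2 of them lower and 1 higher, where 3.33% of all genes with an adjusted p were called lower. PMP22, PRX and NCMAP were the most abundant of the list. PMP22 and PRX were highest in normal replicate 2, where PRX had 1064 reads against 34 to 50 in the other 5 samples.

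Genes of the axons that myelin wraps were looked at as well. None of 12 ganglion cell and axon genes was called, the groups overlapped in all 12, and the median log2FC was -0.20. Over all genes tested 0.615% were called lower, and 14.6% had all PVR samples below all normal samples. Lists of this size without a call are thus the usual case and do not show that axon genes were unchanged. NEFL, the light neurofilament chain, had a log2FC of -0.22 (SE 0.20), SNCG, a synuclein of ganglion cells, -0.29 (SE 0.19), and STMN2, a tubulin-binding protein of axons, -0.12 (SE 0.20). The 12 values of log2FC lay between -0.34 and 0.02. Of 11 genes of the node and paranode, where myelin ends on the axon, none was called and the median was -0.17. ANK3, CNTN1 and NFASC, the most abundant of them, had log2FC of 0.38, 0.01 and -0.25. Whether the myelin genes and the axon genes differ as groups was not tested. For the enzymes that make myelin lipids besides UGT8, none of 12 was called, and the median was -0.25, with DEGS1 and HMGCS1 at -0.18 and -0.37. For these 3 lists the counts at an unadjusted p under 0.05 were 0, 2 and 5, and DESeq2 called 0, 1 and 2 genes. The 1 of the node list was higher in PVR, and the 2 of the lipid list were lower.

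**Figure D5:**
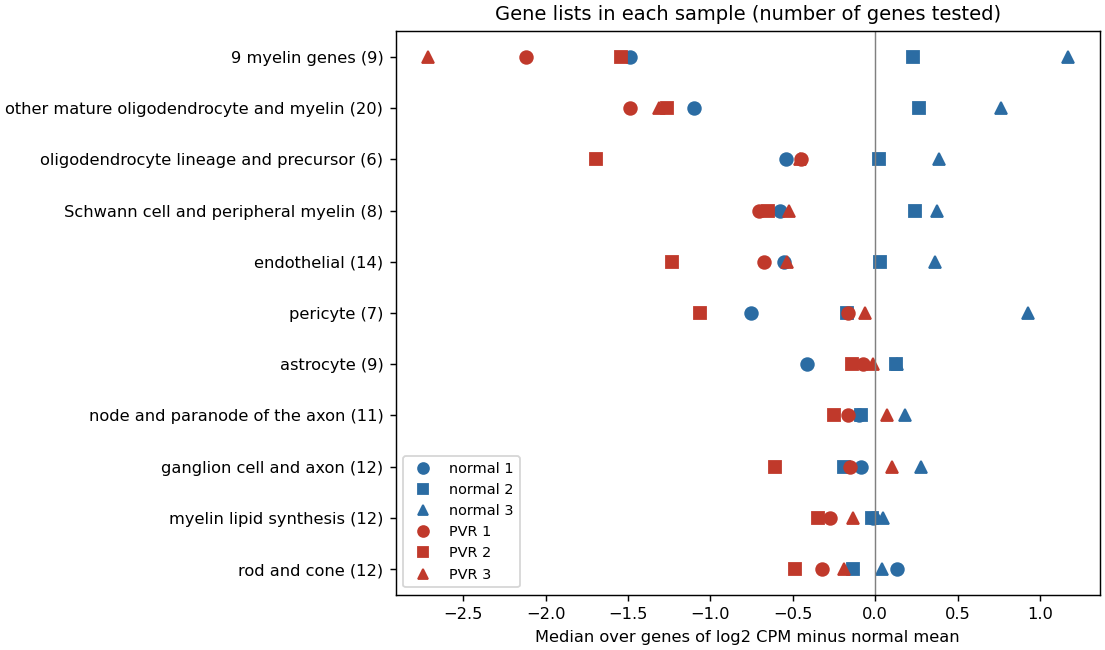
Median over the tested genes of each list of log2 CPM minus the mean of the normal samples, for each sample, with the number of genes in parentheses. The 9 myelin genes spread from -1.49 to 1.17 in the normal samples, whereas the ganglion cell and axon genes stay between -0.61 and 0.28 in all 6 samples.

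Vessels and astrocytes share the medullary rays with oligodendrocytes, so their genes were read in the same way. Of 14 endothelial genes, 11 were lower in PVR, against 51.1% of all genes tested, with a median log2FC of -0.97. VWF and CDH5 were called by edgeR, where 0.615% of all genes tested were called lower. An unadjusted p under 0.05 from edgeR held for 6 of the 14, including FLT1, which was higher in PVR. Of all genes tested, 9.94% were lower with such a p. DESeq2 called 4 lower, where 3.33% of all genes with an adjusted p were called lower. CDH5 and 4 others of the 14 passed the filter only through the normal samples, which favoured a lower value. These counts and the median are thus a description only. Over this list, 8 of 14 genes stood in the order of normal replicates 1, 2 and 3, and VWF, the clotting factor stored in endothelium, had 228, 620 and 950 reads there against 14, 13 and 25 in PVR. The summed level of the list ran from 617 to 669 CPM in the normal samples and from 709 to 731 CPM in PVR. KDR and FLT1 had most of the reads of the list, so the sum does not speak for the other genes. KDR, FLT1 and ESAM, the most abundant, had log2FC of 0.17, 0.27 and -0.50. CDH5, the endothelial cadherin, had 24, 41 and 103 reads in the normal samples against 0, 0 and 1 in PVR. The adjusted p from edgeR was 0.0119 for VWF and 0.0301 for CDH5. Both calls were lost without PVR replicate 1, with adjusted p of 0.106 and 0.188, and that of CDH5 also without normal replicate 2 and PVR replicate 2, with 0.0791 and 0.0849. The part of endothelial cells in the values of the myelin genes was not tested.

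Among 7 pericyte genes only RGS5, a regulator of G proteins, was called, with 133, 485 and 953 reads in the normal samples against 3, 10 and 10 in PVR. Over all genes tested 0.615% were called lower. RGS5 and 2 others of the 7 passed the filter only through the normal samples. The adjusted p of RGS5 from edgeR was 0.0238. It was 0.0681 without normal replicate 2, 0.157 without PVR replicate 1 and 0.0665 without PVR replicate 2. The median log2FC was -0.21, and PDGFRB, MCAM and NOTCH3 had 0.24, -0.72 and -0.21. The summed level of the list was 24.2 to 64.5 CPM in the normal samples and 21.4 to 33.7 CPM in PVR. The part of pericytes in the values of the myelin genes was not tested.

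Astrocyte genes went in both directions, and none of 9 was called by edgeR, with 4 at an unadjusted p under 0.05. DESeq2 called 3 of the 9 lower, namely PAX2, ALDH1L1 and FGFR3, and none higher. Of all genes with an adjusted p from DESeq2, 3.33% were called lower. ALDH1L1 and FGFR3 were named after their values were seen. GFAP, the filament protein of astrocytes and of reactive Mueller cells, had 2236, 7072 and 9885 reads in the normal samples, the order of the myelin genes. In PVR it had 14372, 15192 and 16979 reads, above each normal sample, with a log2FC of 1.39 (SE 0.44, adjusted p = 0.143 from edgeR). PAX2, which marks astrocytes of the optic nerve and retina and was named after its values were seen, had 31, 33 and 128 reads in the normal samples against 1, 0 and 4 in PVR, and it alone of the astrocyte genes passed the filter only through the normal samples. S100B and SLC1A2 had log2FC of 0.22 and -0.08. The summed level of the astrocyte list was 1050 to 1225 CPM in the normal samples and 1308 to 1370 CPM in PVR. SLC1A2 and GFAP made up most of that sum. SLC1A2 had 760 to 930 CPM in the normal samples and 772 to 842 CPM in PVR. GFAP had 58.7 to 247 CPM in the normal samples and 391 to 452 CPM in PVR, so the sum does not speak for the other genes. The part of astrocytes in the values of the myelin genes was not tested.

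The remaining lists marked other cells that a piece of retina can hold. Over all genes tested, edgeR called 0.615% lower and 9.94% were lower at an unadjusted p under 0.05. DESeq2 called 3.33% of all genes with an adjusted p lower. Of 12 rod and cone genes none was called by edgeR, with 8 at an unadjusted p under 0.05 and 2 called lower by DESeq2. All 12 were lower in PVR, against 51.1% of all genes tested. In 7 of them all PVR samples lay below all normal samples in CPM, against 14.6% of all genes tested. Their median log2FC was -0.35, with SAG and GNAT1 at -0.10 and -0.28. Of 8 Mueller glia genes, GLUL and RLBP1 were called lower by edgeR at -1.11 and -0.89, and VIM and SLC1A3 had -0.17 and 0.08. The median was -0.26, and without PVR replicate 1 both calls were lost, with adjusted p of 0.106 and 0.188 from edgeR. The call of RLBP1 was also lost without normal replicate 1, normal replicate 2 or PVR replicate 2. Of 7 tested pigment epithelium genes, LRAT and TTR were called lower by edgeR at -2.82 and -1.56, and both calls were lost without any sample but normal replicate 3, with adjusted p of up to 0.240 and 0.227. RPE65 and TYRP1 of that list had -1.40 and -0.96 without a call, and the median was -0.96. All 10 macrophage and microglia genes had a higher mean in PVR, at a median of 0.84. None of them was called by edgeR, with 5 at an unadjusted p under 0.05 and 4 called by DESeq2, and C1QA, C1QB and CX3CR1 had 0.66, 0.53 and 0.65. HBA, HBB2 and ALAS2 of blood were not called, at -1.08, -0.66 and -0.27. HBA alone had an unadjusted p under 0.05, and DESeq2 called 1 of the 3. None of the 10 lens genes tested was called by edgeR, with 2 at an unadjusted p under 0.05 and a median of -5.49. That median rests on normal replicate 2. The summed level of 11 lens genes was 18.5 and 15.4 CPM in normal replicates 1 and 3, below the 277 to 311 CPM in PVR. DESeq2 called 0 of them but gave no adjusted p for some, CRYAA, CRYBA1 and CRYBB2 included. CRYAA, CRYBA1 and CRYBB2 had at least 121865 reads each in normal replicate 2 and at most 7936 in any other sample.

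The 10 genes outside all lists whose log2 CPM over the 6 samples was most like the mean of the 9 myelin genes were ANK2, ABCB1, PTPRZ1, BLTP2, SMARCAL1, BUD13, CEMIP, XPNPEP1, RRAGC and SP2. Their Pearson correlations ran from 0.977 to 0.990 over 6 samples, among 11590 genes compared, and the points share the division into normal and PVR. Likeness of pattern did not mean likeness of size, since ANK2, an ankyrin of axons, had a log2FC of -0.09. On the FPKM scale its groups overlapped, with 94.8 to 102 FPKM in the normal samples and 93.9 to 97.6 FPKM in PVR. Those of BLTP2 overlapped there too, so the likeness of these genes depends on the scale. CEMIP, a protein that breaks down hyaluronan, was the only one of the 10 that was called by edgeR. It had 288, 675 and 1412 reads in the normal samples against 74, 87 and 108 in PVR, with a log2FC of -3.04 (adjusted p = 0.0421 from edgeR). That p was 0.106 without normal replicate 2 and between 0.0582 and 0.228 without any 1 of the PVR samples. ABCB1, a drug efflux pump known from the blood-brain barrier, had 134, 325 and 504 reads in the normal samples against 76, 86 and 87 in PVR, with a log2FC of -1.83 (adjusted p = 0.0856 from edgeR).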

How the data were processed

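RNA-seq of polyA RNA was analysed from 3 normal and 3 PVR retinas, with groups taken from the sample titles. The authors' reads went through fastp, HISAT2 and HTSeq (submitters' processing notes), with OryCun2.0 as the genome in the study's methods, and the authors deposited raw counts per gene. The deposited FPKM values equal each count divided by gene length and by the sample's total. Annotation release and strand setting are not given in the sources used here. Totals of 31904593 to 43035080 counts limit genes of few reads most.

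Genes were filtered (filterByExpr), scaled by TMM and tested with edgeR 4.0.16 (quasi-likelihood, Benjamini-Hochberg adjustment, R 4.3.3) over 18697 genes, and a gene was called at an adjusted p under 0.05. Standard errors are the fold change divided by the square root of F. Alternatives were DESeq2 1.42.0, limma 3.58.1, other scalings and filters, FPKM with pseudocounts of 1 and 0.1, a fit blocked on replicate number, and fits that leave out 1 sample. The labels do not say whether replicate numbers pair the samples. Deviations of same-numbered samples from their group means correlated at -0.0129, 0.0734 and 0.0417. Pairs of unlike number were not compared, so these values cannot decide whether the samples were paired. Counting intervals are 95% exact binomial (SciPy 1.17.1) and cover counting error only. The test script was tested on simulated data.

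Besides the 9 genes, those named were the called genes and the 3 most abundant genes of each list, and the 10 genes most like the mean of the 9 among genes with a symbol and a mean log2 CPM of at least 1. The 9 genes and all lists were chosen with earlier results of these data known. KLK6, SOX8, LIM2, DHCR7, FASN and some globins of the lists were not matched to a symbol. A few genes of the lists are not reported here by name, though the counts and medians of their lists include them. RefSeq's mOryCun1.1 table was used for neighbouring genes and to find listed genes that the files hold without a symbol, such as PDE6B and PDE6G.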

Additional observations from a re-analysis of the deposited data

How the results depend on the processing

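The direction was lower in PVR for each of the 9 genes in every alternative in which the gene was tested, in 142 of 142 values. These fits reuse the same 6 samples and are not independent. MAG and MOBP passed the main filter only through the normal samples, which favoured a lower value in advance. The tally is thus a description only. Genes with an adjusted p under 0.05 that changed by over 1 on the log2 scale numbered 188 with edgeR, 807 with DESeq2, 87 with limma on log2(FPKM + 1), 82 with the replicate block and 22 to 436 with 1 sample left out. Of the 9 genes, 3 were called by edgeR, 7 by DESeq2, 1 of the 7 with at least 10 counts in every sample, 1 with limma-voom, 1 on log2(FPKM + 1), 1 with the replicate block, and 0 to 6 with 1 sample left out. The median log2 fold change of the 9 was -2.35, and -1.33 on log2(FPKM + 1), a scale that understates changes of low genes. The count for the other mature oligodendrocyte genes was 1 with edgeR, 13 with DESeq2, 3 without a filter, 0 with at least 10 counts in every sample, with robust estimation, with limma-voom and with both FPKM settings, and 0 to 5 with 1 sample left out. The cause of these differences was not tested. The median spread among the normal samples was 6.52, and 6.56 to 6.65 under the other scalings.

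With 3 samples a group, no single-gene permutation test can go below 0.1. MAG and MOBP in PVR rest on 5 to 14 reads a sample, so their fold changes are the least certain in size. With the replicate block the adjusted p was 0.0535 for MOBP and 0.116 for MAG. By the labels, same-numbered samples share only a replicate number, and the block gives no measure of a weaker effect.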
